A study of Mus musculus with 24 samples.

Results

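Mammary glands of mice that had carried a tamoxifen pellet were compared with those of mice that had carried a letrozole pellet, in a line that over-expresses aromatase. Members were the 6 libraries whose labels name both the CYP19A1 line and one of the drugs, 3 with tamoxifen and 3 with letrozole, of 24 libraries in the series. All 6 mice had the genotype MMTV-rtTA/tet-op-CYP19A1, were 20 months old and had been through 8 months of transgene induction. The tamoxifen pellet held 25 mg and the letrozole pellet 2.5 mg, each released over 60 days and placed under the skin at 18 months, so exposure lasted 2 months and the amounts of drug were not matched. The 3 untreated mice of the same line, age and induction are given beside each result; a tag in their labels is not explained there. The comparison in the Esr1 line rested on 3 tamoxifen and 3 letrozole libraries of the genotype MMTV-rtTA/tet-op-Esr1, with the same age, induction time, pellets and exposure. The study asked whether these drugs act differently on the ageing mammary gland under these risk factors. No mouse without a transgene was analysed here, so no value shows the tissue without it.

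CYP19A1 encodes aromatase, which converts androgens into oestrogens; in these mice the mammary-directed MMTV promoter drives a tetracycline-controlled activator that switches the gene on. Letrozole blocks aromatase and so lowers oestrogen, whereas tamoxifen binds the oestrogen receptor itself and acts as an antagonist on some genes and tissues and as an agonist on others. In the mammary gland oestrogen acts on receptor-positive luminal cells and induces, among others, the progesterone receptor and amphiregulin. The mouse gene Cyp19a1 was at 0 to 0.12 TPM in the 6 libraries and was not tested; the transgene's own transcript was not analysed here. TPM is a level per length of transcript, scaled to the same total in each library, and it keeps no record of sequencing depth, so no counting error can be given. Each library is labelled as a separate biological replicate. The p-values rest on the spread between mice of the same group, pooled over all 24 libraries in 8 groups. They do not rest on the spread of the 6 drug libraries alone.

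The 6 libraries differed in more than drug. Between 26.9% and 32.4% of TPM lay in the signal recognition RNA Rn7s and 22.4% to 27.8% in mitochondrial genes, with overlapping ranges for the drugs. The letrozole libraries lay farther apart than the tamoxifen libraries, with a median standard deviation per gene of 0.231 against 0.123 on the log2(TPM + 1) scale and 0.155 in the untreated group. Letrozole replicate 1 had the fewest genes at 1 TPM or more, 14410, against 16137 to 16520 in the other 5. The summed level of 14 epithelial markers was 76.8, 233 and 354 TPM with letrozole and 334, 315 and 430 with tamoxifen, so letrozole replicate 1 lay far below every other library. The summed level of 18 fibroblast and collagen genes was 1409, 1637 and 643 TPM with letrozole and 2310, 2242 and 2103 with tamoxifen, and 15 white fat markers summed to 4299 in letrozole replicate 3 against 7665 to 9018 in the other 5. All of these epithelial, stromal and fat markers were detected in both groups. In bulk tissue fewer cells of a type and less RNA per cell cannot be told apart.

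**Figure D1:**
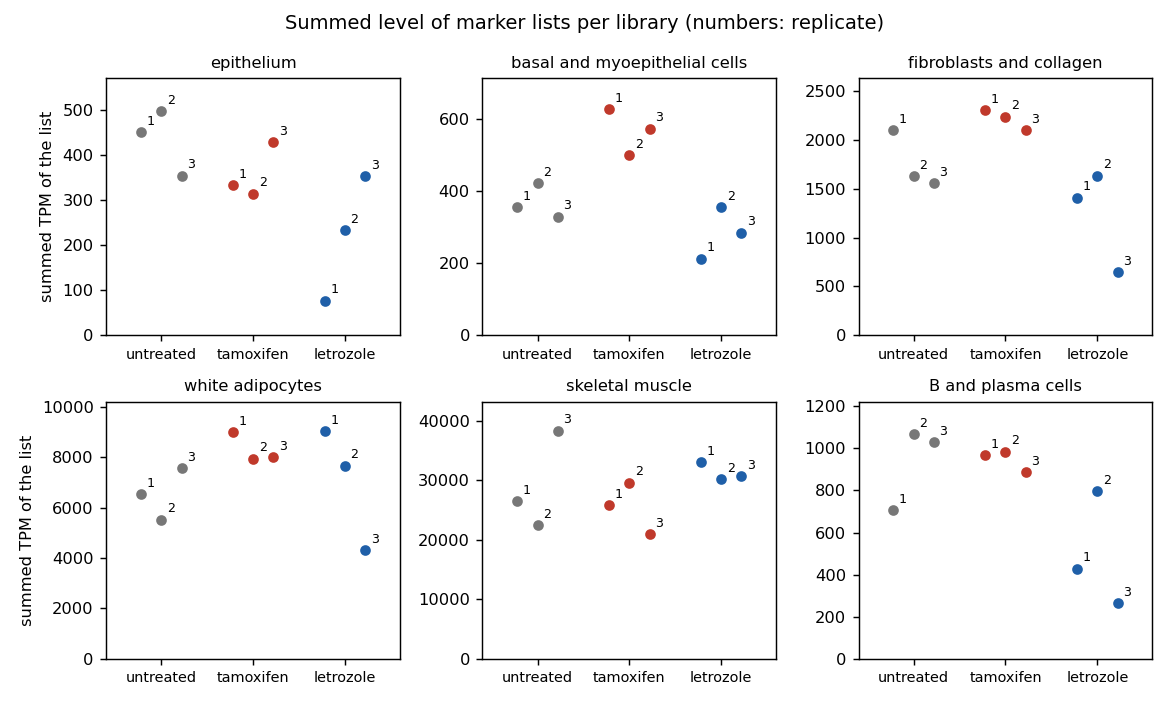
Summed TPM (vertical axis, from 0) of 6 marker lists in each library of the CYP19A1 line, with points numbered by replicate and coloured by group. Letrozole replicate 1 was lowest for epithelium at 76.8 TPM, and letrozole replicate 3 was lowest for fibroblasts and collagen at 643 TPM and for white adipocytes at 4299 TPM.

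Tamoxifen and letrozole separated a small set of genes, and nearly all of that set was higher with tamoxifen. Among 19325 genes with 1 TPM or more in at least 3 libraries, 47 were higher and 1 was lower with tamoxifen at a limma adjusted p under 0.05, which is 0.248% of the genes tested (0.243% higher and 0.00517% lower). The largest differences among them belonged to Akr1cl, Mmd2, Aqp5, Nmu, Krt4 and Oxtr. At an unadjusted p under 0.05 there were 1950 genes. Of the 48, 43 are protein-coding genes.

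The whole distribution was also shifted. The median log2 difference of all genes was 0.16 and 15072 of 19325 genes were positive; after scaling the libraries by median ratios the median was -0.0003 and 49.5% were positive, with 39 genes higher and 5 lower. Without letrozole replicate 1 the median was 0.08. Small differences below should be read against that shift, and every log2 difference given is tamoxifen minus letrozole after adding 1 to each TPM value, a step that shrinks the differences of genes at low level.

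**Figure D2:**
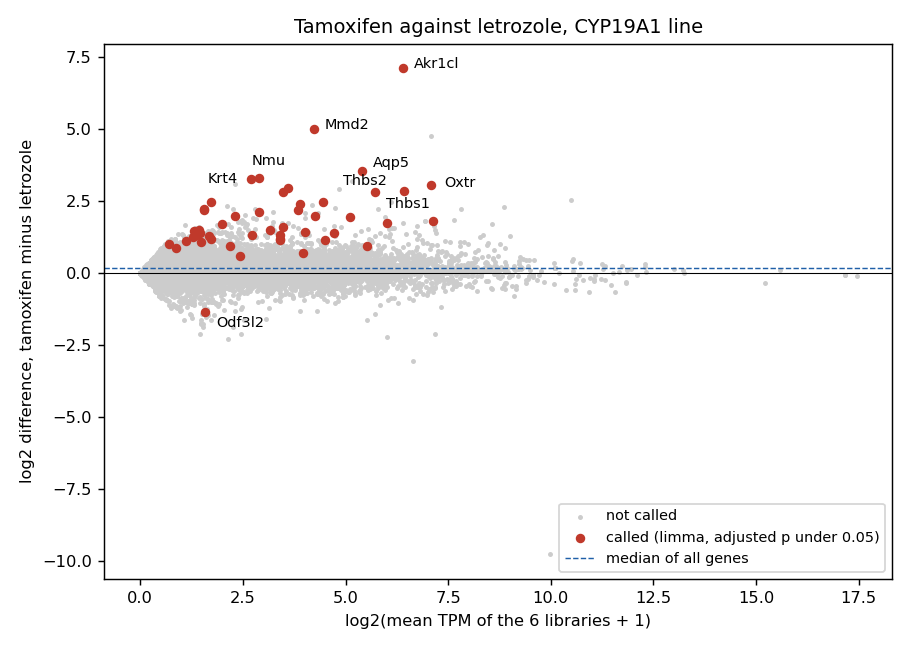
Log2 difference (tamoxifen minus letrozole, vertical axis) against log2(mean TPM of the 6 libraries + 1) for the 19325 genes tested, with the 48 called genes in red and the median of all genes, 0.16, as a dashed line. Akr1cl at 7.11 and Mmd2 at 5.02 stand above the other called genes, and Odf3l2 at -1.36 is the one called gene below 0.

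The largest difference among called genes was that of Akr1cl, at chr1:65013078-65032759 in GRCm38.p6, a member of the aldo-keto reductase family that also holds ketosteroid-reducing enzymes. It stood at 189, 158 and 149 TPM with tamoxifen, 0.06, 0.5 and 0.09 TPM with letrozole and 2.16, 3.22 and 1.36 TPM without a drug. Every tamoxifen library was thus above every untreated library, and every untreated library above every letrozole library. The log2 difference was 7.11 ± 0.72 (SE, limma adjusted p = 4.0e-05). Gm8550, a processed pseudogene at chr1:65027965-65028975 that lies inside the span of Akr1cl, was listed at 0 in all 3 letrozole libraries and at 6.57, 3.28 and 4.06 TPM with tamoxifen; since it shares this span, its reads may belong to Akr1cl, and it is not a separate observation.

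Mmd2, at chr5:142563480-142608936, encodes a membrane protein of the progestin and adipoQ receptor family. It was at 42.1, 32.9 and 31 TPM with tamoxifen, 0.02, 0.15 and 0.18 TPM with letrozole and 0.38, 0.92 and 1.04 TPM in untreated mice. The groups did not overlap, and its log2 difference of 5.02 ± 0.28 had the smallest adjusted p of the comparison (limma, 1.9e-09). Fam78b, a gene of unknown function, was at 20.5, 19.4 and 15.2 TPM with tamoxifen against 1.73, 2.17 and 1.41 TPM with letrozole and 2.72, 2.19 and 1.98 TPM untreated, so the letrozole and untreated ranges overlapped and tamoxifen lay above both.

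Genes for secreted signals and receptors formed one part of the set. Nmu encodes neuromedin U, a neuropeptide that acts on smooth muscle and on immune cells. It was close to absent outside the tamoxifen group, at 13.5, 11.7 and 12 TPM with tamoxifen, 0, 0.09 and 1.26 TPM with letrozole and 0.05, 0.26 and 0.17 TPM untreated (log2 difference 3.31 ± 0.35, limma adjusted p = 4.0e-05). Oxtr encodes the oxytocin receptor, through which myoepithelial cells contract for milk ejection. It reached 261, 212 and 219.6 TPM with tamoxifen, 62.5, 48 and 5.95 TPM with letrozole and 31.2, 60.1 and 34.8 TPM untreated. Letrozole replicate 3 was far below the other letrozole libraries, and the remaining letrozole libraries lay close to the untreated ones. The log2 difference of 3.05 ± 0.58 (limma adjusted p = 0.026) was lost in 7 of 17 alternative analyses, among them leaving out any tamoxifen library and scaling by median ratios, with adjusted p up to 0.27. Pthlh, which encodes parathyroid hormone-related protein, a signal of mammary development, was at 1.73, 2.29 and 1.93 TPM with tamoxifen and 0.28, 0.3 and 0.53 TPM with letrozole (1.12 ± 0.23, limma adjusted p = 0.039). The Pthlh call was lost in 10 of 17 alternatives, including each of the 6 with one library left out, the replicate block and the epithelium covariate, with adjusted p up to 0.23. Il17ra, the shared subunit of interleukin-17 receptors, was at 10.4, 13.3 and 12.8 TPM against 2.81, 4.55 and 3.8 TPM (1.49 ± 0.19, limma adjusted p = 3.2e-04), with untreated mice in between at 5.26, 5.48 and 6.21 TPM.

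The 250 bases upstream of the annotated start are printed for Akr1cl, Aqp5 and Nmu, which had the largest differences among genes whose RefSeq promoter window (GRCm38.p6) begins at the outer end of the gene. They are written 5′ to 3′ on the gene's strand, and capitals mark the oestrogen response half-site GGTCA, searched on both strands (TGACC on the other).
Akr1cl (chr1:65032760-65033009, minus strand): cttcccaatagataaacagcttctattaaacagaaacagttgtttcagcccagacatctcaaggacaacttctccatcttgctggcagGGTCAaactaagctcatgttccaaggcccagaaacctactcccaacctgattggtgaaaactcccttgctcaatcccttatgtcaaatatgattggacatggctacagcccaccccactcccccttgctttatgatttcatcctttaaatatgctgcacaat
Aqp5 (chr15:99590778-99591027, plus strand): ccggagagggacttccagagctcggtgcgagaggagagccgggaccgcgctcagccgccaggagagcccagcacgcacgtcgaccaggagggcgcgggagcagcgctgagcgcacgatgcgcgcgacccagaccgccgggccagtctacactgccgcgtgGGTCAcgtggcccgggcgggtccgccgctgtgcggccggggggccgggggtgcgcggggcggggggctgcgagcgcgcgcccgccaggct
Nmu (chr5:76363778-76364027, minus strand): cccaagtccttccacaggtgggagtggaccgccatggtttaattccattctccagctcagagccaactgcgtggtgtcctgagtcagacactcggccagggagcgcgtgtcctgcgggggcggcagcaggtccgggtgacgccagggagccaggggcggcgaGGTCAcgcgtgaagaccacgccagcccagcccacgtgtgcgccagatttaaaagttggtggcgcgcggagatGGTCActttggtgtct
Nmu held 2 half-sites, and Akr1cl and Aqp5 1 each. Over windows of 300 bases the half-site was found in 12 of the 27 genes called higher that had a window (44.4%) and in 42.7% of 11495 tested genes with one. The full palindrome GGTCANNNTGACC was in 0 of the 27 and in 1 of the 11495. The sequence TGACTCA, the site of AP-1 factors, was in 1 of the 27 (3.70%) and in 4.81% of tested genes, both strands searched. The 2 shares of genes with a half-site differ by little, and letters in this window say nothing about binding.

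Water channels and epithelial surface genes formed a further part. Aqp5, a water channel of secretory epithelia at chr15:99591028-99594829, was at 76.6, 79.2 and 74.8 TPM with tamoxifen, 2.62, 7.04 and 9.03 TPM with letrozole and 10.5, 12.5 and 8.81 TPM untreated. The tamoxifen libraries were nearly equal, and the letrozole range reached into the untreated range (log2 difference 3.55 ± 0.62, limma adjusted p = 0.015). This call was lost without any one of the tamoxifen libraries or letrozole replicate 1, and with an epithelium score as covariate, with adjusted p up to 0.13, while the log2 difference stayed between 3.12 and 3.85 in the 17 alternatives. Its neighbour Aqp2, at chr15:99579056-99584545, best known as the vasopressin-regulated channel of the kidney, rose from 0.04, 0.02 and 0.1 TPM with letrozole to 4.57, 4.15 and 2.86 TPM with tamoxifen (2.19 ± 0.34, limma adjusted p = 0.0035). Of 9 aquaporin genes listed, 6 were tested, these 2 were called and the other 4 were not (0.248% of all genes were called). The lists were chosen with earlier results of these data known, so these counts are only a description. Aqp1, the channel of vessel endothelium, had a log2 difference of 0.23 (95% interval -0.27 to 0.72).

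Krt4 encodes a keratin of non-cornified stratified epithelia such as the oesophagus. It was at 12.4, 7.98 and 12 TPM with tamoxifen, 0.13, 0.13 and 0.4 TPM with letrozole and 0.2, 0.26 and 0.26 TPM untreated (3.26 ± 0.37, limma adjusted p = 8.2e-05). The keratins that mark the gland itself did not pass the test. Krt8, a luminal keratin, had a log2 difference of 1.19 ± 0.41 (limma adjusted p = 0.35) and Krt5, a basal one, 0.65 ± 0.39 (0.58). Slc44a4, a choline transporter-like protein of epithelial surfaces, was at 3.48, 3.01 and 2.47 TPM with tamoxifen and 0.09, 0.42 and 0.78 TPM with letrozole (1.50 ± 0.25, limma adjusted p = 0.0058), and the desmosomal cadherin Dsc2 at 2.3, 2.2 and 2.71 TPM and 0.08, 0.63 and 0.62 TPM (1.26 ± 0.21, 0.0053). Both calls were lost without letrozole replicate 1 and with only the compared groups in the fit, and that of Slc44a4 also without tamoxifen replicate 1. Both were kept with the epithelium score as covariate. Foxj1, the transcription factor of motile cilia, was at 2.34, 3.16 and 2.36 TPM with tamoxifen against 0.13, 0.67 and 0.2 TPM with letrozole (1.46 ± 0.26, limma adjusted p = 0.013) and lost its call without letrozole replicate 1 or 3 or tamoxifen replicate 2, but kept it with the epithelium score as covariate.

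**Figure D3:**
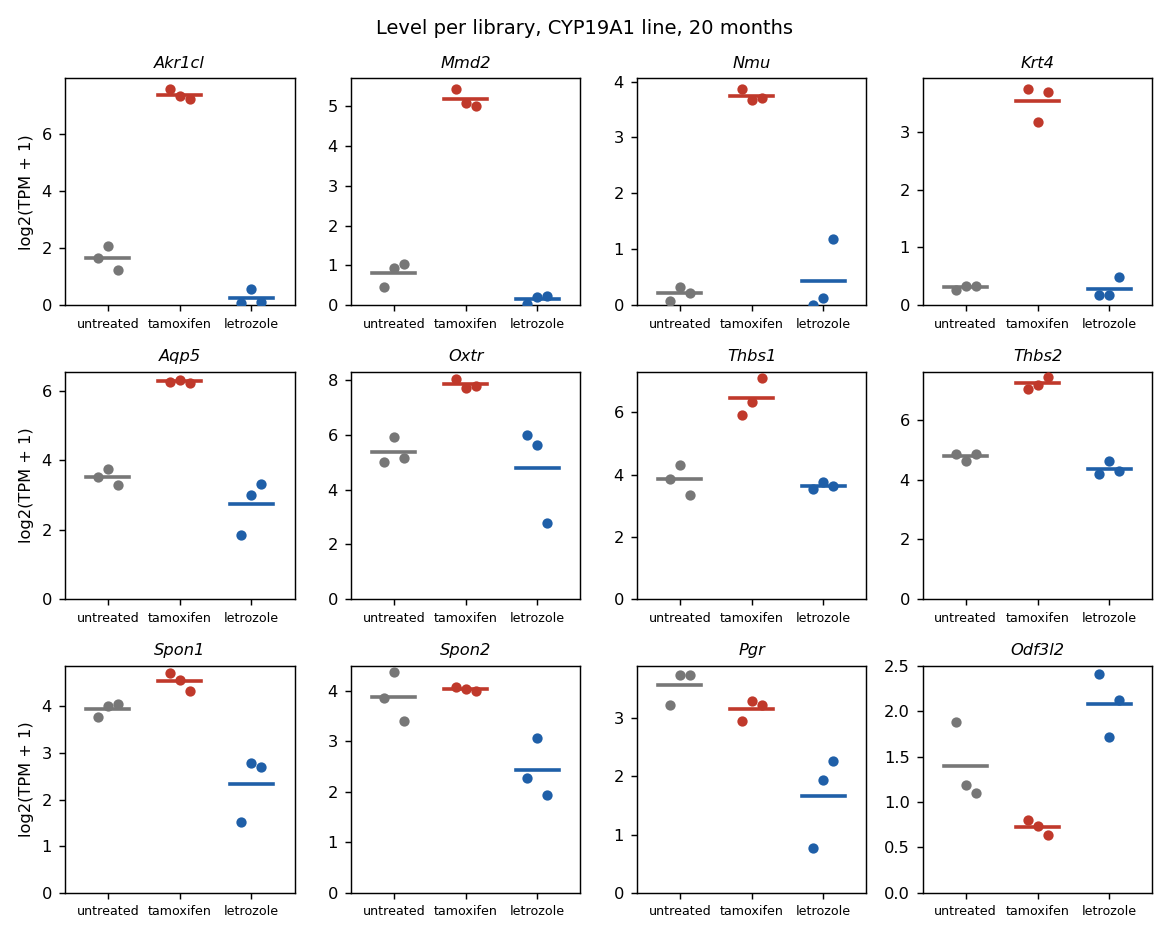
Level of 12 genes as log2(TPM + 1) (vertical axis, from 0) in each library of the CYP19A1 line at 20 months, 3 per group, with a bar at the group mean. Akr1cl, Mmd2, Nmu, Krt4, Aqp5, Oxtr, Thbs1 and Thbs2 were high with tamoxifen alone. For Spon1, Spon2 and Pgr the letrozole libraries lay below both other groups, as they also did for Akr1cl, Mmd2 and Thbs2. The tamoxifen libraries of Spon1 also lay above the untreated ones.

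Several of the called genes encode matrix proteins or enzymes that act on them. Thrombospondins are matrix proteins that regulate adhesion and vessel growth. Thbs1 was at 59.8, 80.7 and 137 TPM with tamoxifen, 10.7, 12.5 and 11.5 TPM with letrozole and 13.7, 19 and 9.25 TPM untreated (2.82 ± 0.34, limma adjusted p = 1.4e-04). Thbs2 was at 132, 145 and 173 TPM, 17.3, 23.5 and 18.6 TPM and 27.9, 23.9 and 28.4 TPM in the same order (2.86 ± 0.52, limma adjusted p = 0.019). The lowest tamoxifen library of either gene was above every library of the other groups; the call of Thbs2 was lost, with adjusted p up to 0.13, without any tamoxifen library or without letrozole replicate 1 or 3.

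Adamts2, the protease that trims procollagen before fibres form, was at 38.8, 40.0 and 29.4 TPM with tamoxifen, 7.47, 7.39 and 3.24 TPM with letrozole and 9.32, 8.28 and 7.82 TPM untreated (2.45 ± 0.40, limma adjusted p = 0.0059). Tgm2, an enzyme that cross-links matrix proteins, was at 249, 204 and 202 TPM, 53.4, 70.8 and 62.7 TPM and 79.7, 87 and 85 TPM (1.79 ± 0.26, limma adjusted p = 0.0012). In both genes the 3 groups did not overlap and untreated mice stood between the drugs. Adamts2 missed the threshold without tamoxifen replicate 2 (adjusted p = 0.057), and Tgm2 kept its call in every alternative.

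The fibrillar collagens themselves did not pass. Of 18 fibroblast and collagen genes, Thbs1 and Thbs2 were called (0.248% of all genes were) and 17 were positive (78.0% of all genes were). In 11 every tamoxifen library was above every letrozole library (21.7% of all genes). The median log2 difference was 0.75 against 0.16 for all genes. Col1a1, the chain of type I collagen, was at 107, 99 and 89.9 TPM with tamoxifen, 49.2, 58.9 and 11.2 TPM with letrozole and 74.7, 53.1 and 50.9 TPM untreated (1.58 ± 0.42, limma adjusted p = 0.17), and Col3a1 at 585, 560.5 and 468 TPM, 279, 321 and 48.5 TPM and 531, 316 and 257 TPM (1.71 ± 0.51, 0.26). Letrozole replicate 3 was the lowest library for both, and without it the median of the list was 0.32.

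Proteases of other kinds were among the called genes. Klk1, tissue kallikrein, which releases kinins, was at 4.34, 3.95 and 3.24 TPM with tamoxifen, 0, 0.07 and 0.05 TPM with letrozole and 0.08, 0.03 and 0.05 TPM untreated (2.21 ± 0.27, limma adjusted p = 1.4e-04). Prtn3, proteinase 3, known from neutrophil granules, was at 17.8, 21.6 and 22.2 TPM, 1.4, 3.16 and 1.15 TPM and 3.7, 3.71 and 7.4 TPM (2.95 ± 0.36, limma adjusted p = 2.3e-04). It lies 4.71 kb from Plppr3, a phospholipid phosphatase-related membrane protein that was at 21.9, 22.3 and 27.2 TPM, 2.86, 4.85 and 3.66 TPM and 4.9, 6.08 and 5.6 TPM (2.39 ± 0.23, 1.3e-05). For both neighbours the groups did not overlap, with untreated mice in between. Among enzymes of metabolism, Pnp, which splits purine nucleosides, was at 63.7, 52.2 and 44.4 TPM with tamoxifen, 12.4, 16.4 and 11 TPM with letrozole and 16, 14.2 and 12.5 TPM untreated (1.94 ± 0.31, limma adjusted p = 0.0047), though reads of its close paralogue Pnp2 may be split with it.

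Where untreated mice stood differed between genes. Of the 47 genes, 43 had every tamoxifen library above every untreated one (15.4% of all genes) and 23 had every letrozole library below every untreated one (8.51% of all genes); the genes were chosen on these same drug libraries, so these counts are a description. In 24 genes tamoxifen lay wholly above untreated while letrozole did not lie wholly below it. In 19, untreated lay between the drugs without overlap. In 4, Spon2, Ang5, Tmem53 and Upk2, letrozole lay wholly below untreated while tamoxifen did not lie wholly above it. Spon2, a matrix protein of the spondin family, was at 16, 15.4 and 15 TPM with tamoxifen, 13.5, 19.7 and 9.65 TPM untreated and 3.87, 7.33 and 2.84 TPM with letrozole. Its difference between the drugs was 1.61 ± 0.26 (limma adjusted p = 0.0053), that of tamoxifen against untreated 0.16 ± 0.26 (1) and that of letrozole against untreated -1.45 ± 0.26 (0.059). Upk2, a uroplakin of the urothelial surface, was at 1.32, 1.33 and 1.41 TPM, 1.59, 1.44 and 1.72 TPM and 0.19, 0.33 and 0.37 TPM in the same order. For Upk2 every tamoxifen library was thus below every untreated one. Of these 4, the call of Spon2 was lost in 1 of 17 alternatives, that of Tmem53 in 8 and those of Ang5 and Upk2 in 9 each. Spon1, a relative of Spon2, was at 25.1, 22.5 and 19.2 TPM, 12.7, 15 and 15.4 TPM and 1.88, 5.87 and 5.47 TPM, with a difference between the drugs of 2.20 ± 0.40 (limma adjusted p = 0.019, up to 0.15 and not called without any tamoxifen library, without letrozole replicate 1, with only the compared groups in the fit or with the epithelium covariate). Against untreated mice, 22 genes were higher (0.114%) and 9 lower (0.0466%) with tamoxifen, 0.16% in all, and 0 higher and 4 lower with letrozole (0.0207%), with 846 and 733 genes at an unadjusted p under 0.05.

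Odf3l2, named for the outer dense fibres of sperm tails, was the one gene called lower with tamoxifen. It was at 0.74, 0.66 and 0.55 TPM with tamoxifen, 4.32, 2.28 and 3.38 TPM with letrozole and 2.7, 1.28 and 1.15 TPM untreated (-1.36 ± 0.25, limma adjusted p = 0.017). The drug groups did not overlap, but the call was lost in 7 of 17 alternatives with adjusted p up to 0.28. The genes next in order of p did not pass: Hdc, the histamine-forming enzyme, was at 1.35, 1.52 and 1.08 TPM with tamoxifen and 5.11, 2.38 and 4 TPM with letrozole (-1.02 ± 0.25, limma adjusted p = 0.12). Errfi1, a feedback inhibitor of EGF receptor signalling, was at 14.6, 14.1 and 12.6 TPM and 20.5, 19.6 and 31.8 TPM (-0.73 ± 0.21, 0.24).

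Esr1 and the listed oestrogen targets did not separate the drugs at the threshold in the main fit. With only the CYP19A1-line libraries in the fit, 1 listed target was called higher. Esr1, the receptor that tamoxifen binds, was at 14.9, 15.4 and 14.8 TPM with tamoxifen, 14.7, 14.4 and 12.6 TPM with letrozole and 19.2, 13.3 and 19.1 TPM untreated, with a log2 difference of 0.12 (95% interval -0.32 to 0.55, limma adjusted p = 0.85); it turned negative under both other scalings, at -0.09 by median ratios and -0.03 by rescaling that leaves out the 50 most abundant genes. Pgr, the progesterone receptor and a classic oestrogen target, was at 6.71, 8.8 and 8.29 TPM with tamoxifen, 0.7, 2.84 and 3.82 TPM with letrozole and 8.3, 12.3 and 12.4 TPM untreated. The drug groups did not overlap and letrozole was lowest, but the difference of 1.49 ± 0.39 (95% interval 0.67 to 2.32) did not pass (limma adjusted p = 0.17). Of 22 listed oestrogen targets 17 were tested and 0 were called. Of the 17, 6 had an unadjusted p under 0.05, against 1950 of all 19325 genes. Among them 15 were positive (78.0% of all genes were) and 5 had every tamoxifen library above every letrozole library (21.7% of all genes). Their median was 0.30, against 0.16 for all genes. Stc2, a secreted glycoprotein, was at 20.8, 18.5 and 17.6 TPM with tamoxifen and 5.42, 9.59 and 12.5 TPM with letrozole (1.04 ± 0.34, limma adjusted p = 0.34).

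Areg encodes amphiregulin, the EGF-family ligand that carries the oestrogen signal to neighbouring cells. It was at 9.59, 26.2 and 19.5 TPM without a drug, 0.44, 0.28 and 0.54 TPM with tamoxifen and 0.45, 1.42 and 1.7 TPM with letrozole, so every treated library was below every untreated one and the drug groups overlapped. Its log2 difference between the drugs was -0.58 ± 0.59 (limma adjusted p = 0.73), against -3.67 ± 0.59 for tamoxifen minus untreated (0.0078) and -3.09 ± 0.59 for letrozole minus untreated (0.13). Greb1, another oestrogen target, was at 0.9, 1.53 and 0.78 TPM with tamoxifen and 0.25, 0.83 and 0.83 TPM with letrozole (0.34 ± 0.30, 0.69). In the progesterone and RANKL list 10 of 11 genes were tested and 0 called. Of the 10, 1 had an unadjusted p under 0.05 (1950 of all 19325 genes had) and the median was 0.17. In the EGF list the figures were 11 of 13, 0, 0 and 0.14. Both medians fell below 0 with the epithelium covariate, to -0.34 and -0.26, and that of the EGF list also without letrozole replicate 1 (-0.15) or tamoxifen replicate 3 (-0.02) and with median-ratio scaling (-0.04). Among 12 steroid and pituitary hormone receptors, 11 were tested and Oxtr alone was called (0.248% of all genes were). Prlr, the prolactin receptor, was at 24.8, 25.6 and 21.1 TPM with tamoxifen and 8.01, 15.9 and 32.9 TPM with letrozole (0.52 ± 0.35, limma adjusted p = 0.61), with overlapping groups.

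**Figure D4:**
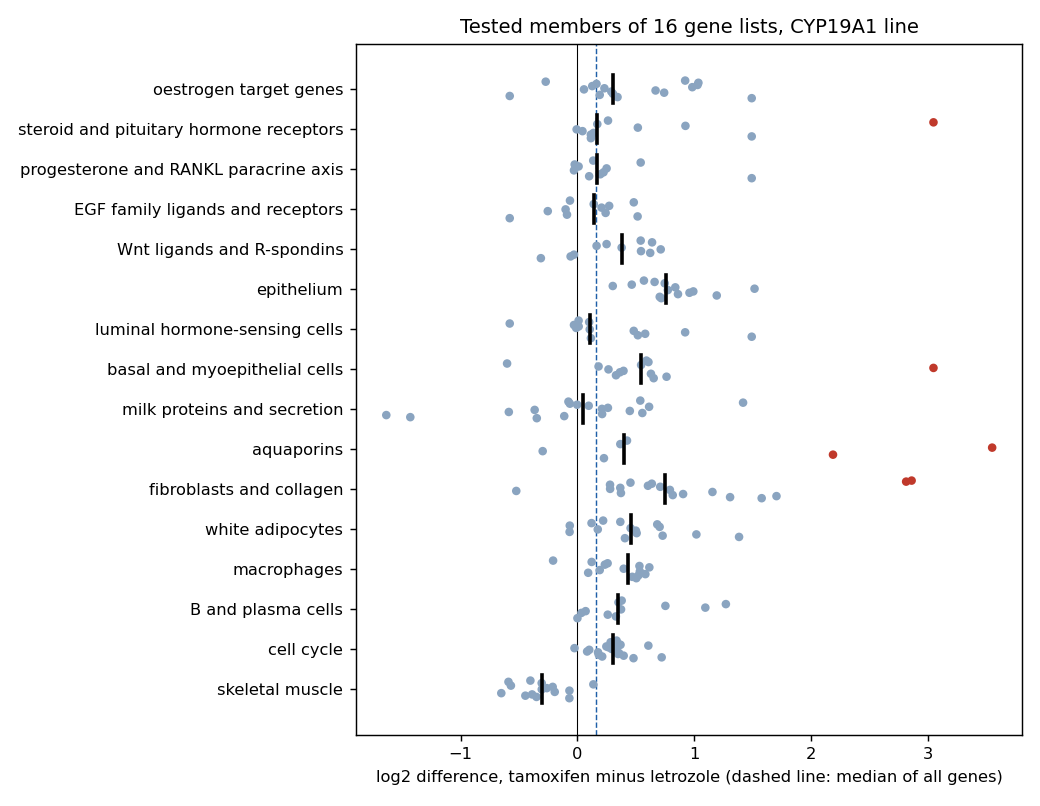
Log2 difference (tamoxifen minus letrozole, horizontal axis) of each tested member of 16 gene lists, with called genes in red, the list median as a black bar and the median of all genes, 0.16, as a dashed line. The epithelium list (median 0.76) and the fibroblast and collagen list (0.75) lie farthest to the right, and skeletal muscle (-0.31) farthest to the left.

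Epithelial markers leaned towards tamoxifen without a call. All 14 were positive, as were 78.0% of all genes, with a median of 0.76 and a range of 0.30 to 1.52. Of the 14, 5 had an unadjusted p under 0.05, against 1950 of all 19325 genes. Every tamoxifen library was above every letrozole library in 3 of the 14, a share close to the 21.7% of all genes. Cldn4, a tight junction protein, was at 12.5, 14.3 and 15.1 TPM with tamoxifen and 0.97, 4.79 and 11.4 TPM with letrozole (1.52 ± 0.41, limma adjusted p = 0.18). Without letrozole replicate 1 the median of the list was 0.24, and after scaling by median ratios it was 0.58. Of 13 basal and myoepithelial genes 12 were positive and Oxtr alone was called (0.248% of all genes were). The median of this list was 0.55 (0.18 without letrozole replicate 1). Acta2, smooth muscle actin, was at 146, 104 and 137 TPM with tamoxifen and 60.8, 110.3 and 82.3 TPM with letrozole (0.63 ± 0.23, 0.38). With the epithelium score as covariate 50 genes were called higher and 7 lower, 33 of the 48 among them, and the median of the basal list was -0.04. With a skeletal muscle score as covariate 50 genes were called higher and 2 lower, 46 of the 48 among them. The part of other tissue in the called genes was not tested.

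The same drug contrast in the Esr1 line shared no library with this one, but both came from one fit with a shared spread per gene. Their calls are therefore not fully independent. With only the compared groups in the fit, far fewer genes were called in the Esr1 line, as given under processing. It called 19 genes higher (0.0983% of genes) and 6 lower (0.031%) with tamoxifen, 0.129% in all. Of the 47 genes called higher in the CYP19A1 line, 44 were positive in the Esr1 line (93.6%, against 58.5% of all genes), 30 had every tamoxifen library above every letrozole library there (11.8% of all genes had) and 11 were called. Those 11 are 23.4% of the 47 and 57.9% of the 19, and they are Mmd2, Gm8550, Plppr3, Flrt1, Tgm2, Fam78b, Asic2, Slc44a4, Foxj1, Mtss1l and AC109619.1. Gm8550 lies inside the span of Akr1cl, which was not itself called in the Esr1 line, and its reads may belong to Akr1cl. Mmd2 was at 9.08, 17.5 and 28.7 TPM with tamoxifen and 0.12, 0.1 and 0.08 TPM with letrozole in the Esr1 line (4.01 ± 0.28, limma adjusted p = 1.2e-07). Flrt1, an adhesion protein of axons and muscle, had nearly the same difference in both lines, 1.28 ± 0.15 and 1.42 ± 0.15 (limma adjusted p = 8.2e-05 and 5.0e-05).

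Other genes were not called in the Esr1 line. Akr1cl was at 61.8, 72.7 and 131 TPM with tamoxifen and 15, 6.09 and 3.62 TPM with letrozole in the Esr1 line (3.40 ± 0.72, limma adjusted p = 0.088). Nmu was at 0.36, 0.57 and 4.19 TPM and 0.14, 0 and 0 TPM there (1.09 ± 0.35, 0.37), and Prtn3 at 10.1, 12.8 and 7.21 TPM and 9.1, 4.3 and 4.8 TPM (0.67 ± 0.36, 0.72). The median difference of the 47 genes was 1.61 in the CYP19A1 line and 1.05 in the Esr1 line, and 41 were larger in the CYP19A1 line, in which they had been chosen. The test of the difference between lines called 0 genes among all tested, with 853 at an unadjusted p under 0.05, 22 of them among the 47. The smallest p among genes that could be named were those of Nmu (2.21 ± 0.50, unadjusted p = 2.4e-04, limma adjusted p = 0.97), Prtn3 (2.27 ± 0.52, 2.8e-04, 0.97) and Htra4 (1.52 ± 0.35, 3.5e-04, 0.97). Htra4, a serine protease, was at 2.17, 3.11 and 2.67 TPM with tamoxifen and 0.49, 0.63 and 0.23 TPM with letrozole in the CYP19A1 line, and at 0.93, 1.76 and 2.89 TPM and 2.21, 2.42 and 1.76 TPM in the Esr1 line, and its call in the CYP19A1 line was lost in 4 of 17 alternatives. Ang5, a ribonuclease of the angiogenin family whose close paralogues may share its reads, was called in the CYP19A1 line and listed at 0 in all 6 of these Esr1 libraries.

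**Figure D5:**
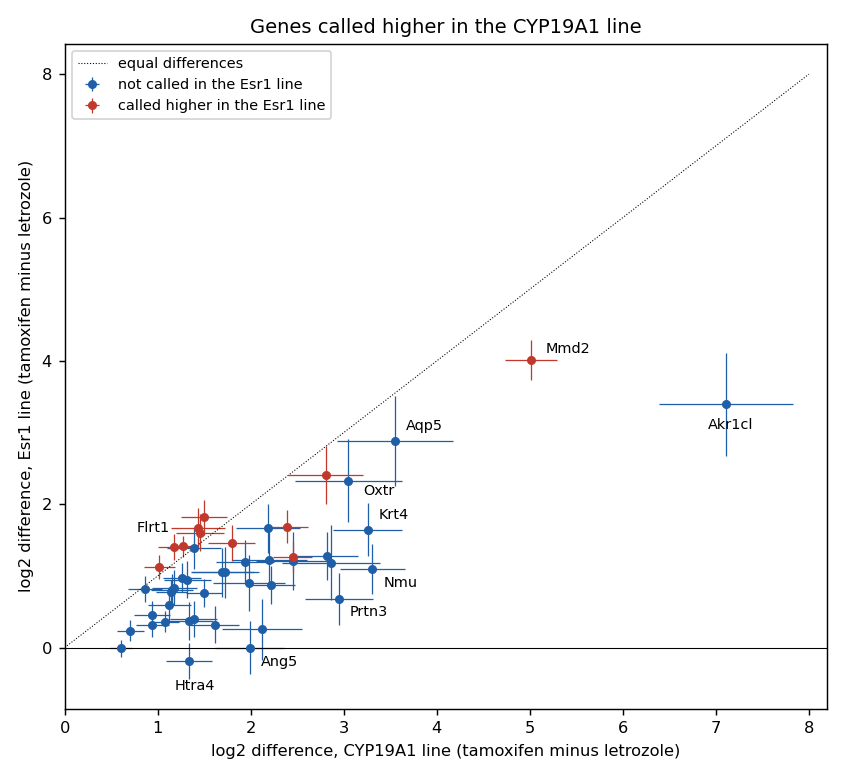
Log2 difference (tamoxifen minus letrozole) in the Esr1 line (vertical axis) against the CYP19A1 line (horizontal axis) for the 47 genes called higher in the CYP19A1 line, with bars of 1 SE, red where the gene was also called in the Esr1 line, and a dotted line of equal differences. Most points lie above 0 but below the dotted line, 41 of the 47 being larger in the CYP19A1 line.

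Of the 48 calls, 16 held in all 17 alternative analyses: Akr1cl, Aqp2, Fam78b, Flrt1, Gm8550, Haus7, Il17ra, Klk1, Krt4, Mmd2, Nmu, Plppr3, Pnp, Prtn3, Tgm2 and Thbs1. Among these, Akr1cl and Gm8550 are not separate observations. With each of the 6 libraries left out in turn, 19 held every time, and the count of calls ranged from 21 without tamoxifen replicate 2 to 42 without letrozole replicate 2 or 3.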

How the data were processed

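RNA of whole mammary gland was made into stranded total RNA libraries after ribosomal RNA depletion with random priming, per the labels' protocols. The authors deposited a table of TPM values for 55487 genes in 24 libraries. Build mm10 and the tools RSEM 1.3.1, STAR 2.7.9a, Trim Galore 0.6.5 and FastQC 0.11.9 are named per the submitters' processing notes, without their roles. Depth is unknown.

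Log2(TPM + 1) was fitted with limma 3.58.1 in R 4.3.3 (trend and robust options) over 8 groups of 3 with one shared spread, for the 19325 genes with 1 TPM or more in at least 3 libraries. P-values were adjusted by the Benjamini-Hochberg method over all genes, for each of 5 comparisons, with a threshold of 0.05. The script was tested on simulated data. Named genes were Esr1, Pgr and Cyp19a1, up to 15 called genes per direction by size (leaving out predicted genes, small RNAs, overlapping groups and genes under 2 TPM), the 10 of smallest p where fewer than 10 were called, up to 4 called members of each of 39 lists or the 2 of smallest p, and 3 for the line difference; any other gene named was picked after its values were seen. Of 550 listed genes 546 were in the table. The members and lists were chosen with earlier results of these data known. Promoters and coordinates are from RefSeq (GRCm38.p6), matched by symbol.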

Additional observations from a re-analysis of the deposited data

How the results depend on the processing

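For tamoxifen against letrozole in the CYP19A1 line, 48 genes were called. The count was 41 with a pseudocount of 0.1, 46 without a filter, 50 with the filter on the 6 libraries, 44 with median-ratio scaling, 52 after rescaling without the 50 most abundant genes, 50 with only the compared groups, 52 with a muscle covariate and 57 with an epithelium covariate. It was 88 without Esr1 untreated replicate 2 in the shared spread and 95 with the CYP19A1 line alone, both chosen after seeing the data, and 21 to 42 with one library left out: 21 without tamoxifen replicate 2, 24 without letrozole replicate 1 and 28 without tamoxifen replicate 1. Esr1 untreated replicate 2 held 17.4% of TPM in ribosomal RNA genes, against 2.02% or less in every other library. Labels number the mice 1 to 3 in each group. Same-numbered tamoxifen and letrozole libraries correlated in their deviations at 0.14, -0.07 and 0.19, and differently numbered ones at -0.22 to 0.10. So few values cannot decide whether the numbers are a pairing. Each library is labelled as a separate biological replicate, and the main fit used no pairing. The replicate block gave 41 calls, 0 for letrozole against untreated, and moved no other count beyond 1.5 times. In the Esr1 line 25 genes were called, 13 with the pseudocount of 0.1, 58 without a filter, 56 with median-ratio scaling, 50 after rescaling, 1 with only the compared groups, 6 with the epithelium covariate and 9 to 103 with one library left out (9 without tamoxifen replicate 2 or letrozole replicate 2, 14 and 16 without letrozole replicates 3 and 1, 62 and 103 without tamoxifen replicates 1 and 3). The line difference called 0, against 3 without a filter, 1 with median-ratio scaling, 1 with only the compared groups and 0 to 28 with one library left out (28 without Esr1 tamoxifen replicate 3). Tamoxifen against untreated called 31, against 18 with the pseudocount of 0.1, 17 with the filter on the 6 libraries, 147 with only the compared groups, 62 with the CYP19A1 line alone and 15 to 27 with one library left out (15 without untreated replicate 2 or tamoxifen replicate 2, 16 without untreated replicate 3, 18 without tamoxifen replicate 1). Letrozole against untreated called 4, against 1 with the pseudocount of 0.1, 0 without a filter, 1 with the filter on the 6 libraries, 9 with median-ratio scaling, 0 with the epithelium covariate, 2 without Esr1 untreated replicate 2, 1 with the CYP19A1 line alone and 0 to 3 with one library left out (0 without untreated replicate 2 or 3 or letrozole replicate 1 or 3). The cause of these moves was not tested. For single named genes, 1867 values kept their side of the threshold, 205 lost their call and 9 gained one. No called gene changed its direction in the alternatives run, but 9 uncalled ones did in 19 values, and the median of 21 of 39 gene lists changed sign in at least 1 alternative. TPM carries no depth, so no limit of detection can be given.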

Other observations

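Milk protein genes varied widely between mice of one group. Of 18 genes 9 were positive, 0 were called and 0 had an unadjusted p under 0.05. Csn2, beta-casein, was at 0.77, 1.35 and 167 TPM with tamoxifen, 25.1, 63.5 and 11.5 TPM with letrozole and 309, 127 and 0.08 TPM untreated, and Wap, whey acidic protein, at 0.21, 0.08 and 3.18 TPM, 0.11, 0.29 and 0.2 TPM and 219, 24.2 and 0.08 TPM. For Csn2, tamoxifen replicate 3 lay far above the other tamoxifen libraries and untreated replicate 3 far below the other untreated ones. Ucp1, the uncoupling protein of brown fat, was at 52.9, 149 and 0.39 TPM with tamoxifen and 0.06, 0.78 and 6.65 TPM with letrozole, a log2 difference of 3.20 ± 1.50 (limma adjusted p = 0.49) in which the groups overlapped. Among immune markers, 13 of 14 macrophage genes, 16 of 16 interferon-stimulated genes, 8 of 8 MHC class II genes and 12 of 15 T and NK cell genes were positive, against 78.0% of all genes, with medians of 0.43, 0.36, 0.54 and 0.22, against 0.16 for all genes, and 0 called in each. Of these, 0, 3, 0 and 0 had an unadjusted p under 0.05, against 1950 of all 19325 genes. Of 11 tested B and plasma cell genes, 11 were positive, 0 were called and 4 had an unadjusted p under 0.05. Their median was 0.35, and 0.25 without letrozole replicate 1 or 0.24 without letrozole replicate 3. Letrozole replicate 3 had the lowest summed MHC class II level, 157 TPM against 332 and 367 in the other letrozole libraries and 385 to 496 with tamoxifen. Without it the median was 0.27 for MHC class II and 0.23 for macrophages, and without letrozole replicate 1 it was 0.24 for interferon-stimulated genes and 0.02 for T and NK cells. Skeletal muscle genes leaned the other way, with 1 of 15 positive (78.0% of all genes were). Their median was -0.31, with 0 called and 0 at an unadjusted p under 0.05. In 6 of the 15 every tamoxifen library was below every letrozole library (2.75% of all genes). With median-ratio scaling their median was -0.53.

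Some called genes were neighbours. Of the 48, 44 had RefSeq coordinates (GRCm38.p6), and 8 of them lay within 50 kb of another, as 4 pairs: Akr1cl with Gm8550, Aqp2 with Aqp5 (6.48 kb apart), Plppr3 with Prtn3 (4.71 kb) and C1qtnf1 with Cant1 (9.32 kb). How often tested genes in general lie so close was not counted, so the 4 pairs are only a description. Akr1cl and Gm8550 overlap and are not separate observations. The 101 other tested genes within 50 kb of a called gene had a median log2 difference of 0.23. Kiss1r, the kisspeptin receptor, 33.8 kb from Prtn3, had 0.91 (limma adjusted p = 0.16), and Pnp2, 2.73 kb from Pnp, 1.13 (0.067); Pnp and Pnp2 are near-identical paralogues whose reads the counting may split. C1qtnf1, an adipokine of the C1q family, was at 33.9, 37.9 and 38.9 TPM with tamoxifen and 13.9, 14.3 and 12.3 TPM with letrozole, and Cant1, a nucleotidase, at 16.5, 18.3 and 20.5 TPM and 11.1, 11.8 and 9.89 TPM. The call of C1qtnf1 was lost in 5 and that of Cant1 in 11 of 17 alternatives. Whether neighbours share a transcript was not tested.

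Gm22513, a small nuclear RNA gene, had the most negative difference of all, -9.76 (limma adjusted p = 0.075), with a mean of 1.02 ± 1.77 TPM (SD, n = 3) with tamoxifen, 2025 ± 2169 with letrozole and 2682 ± 1494 untreated. Small RNAs are poorly measured in such libraries and this one was not called.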
